A study of Rattus norvegicus with 6 samples.

Results

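Mitochondrially encoded genes are the genes carried on the small circular genome inside mitochondria. In mammals this genome encodes core subunits of the respiratory chain and of ATP synthase (subunits of NADH dehydrogenase or complex I, cytochrome b of complex III, cytochrome c oxidase or complex IV, and ATP synthase or complex V), together with the transfer and ribosomal RNAs that translate them inside the organelle. Both strands are transcribed as long precursors, which are cut at the tRNAs that lie between many of the other genes, and most of the released mRNAs receive a short poly(A) tail. Oligodendrocytes (OLs), the myelinating cells of the central nervous system, use mitochondrial metabolism while they differentiate and build myelin lipids.

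The members were chosen by position alone. All rows assigned to the mitochondrial chromosome (MT) were taken, which gave 35 of the 32552 genes in the count tables. The tables pair their gene identifiers with no names, so each member is given by its class and by its first base on MT in the Rnor6.0 genome build. The 22 rows of 60 to 75 bases are called tRNA genes here, and the 13 rows of 204 to 1830 bases protein-coding genes, from their lengths in the compact layout that mammalian mitochondrial genomes share. Of the protein-coding genes, 12 lay on the plus strand and 1 on the minus strand, the 519-base gene at 13543. Of the tRNA genes, 14 lay on the plus strand and 8 on the minus strand. The tables hold no row at bases 68–1025 and 1094–2664, intervals of 958 and 1571 bases, and the other gaps between neighbouring members were at most 32 bases. Ribosomal RNA genes were not analysed here.

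The study asked how the shape of the growth surface affects OLs, by comparing flat hydrogels with micropillars, upright hydrogel cylinders that stand in for axons. All cells were wild-type OL lineage cells of postnatal Sprague Dawley rat cortex, which the labels call OL progenitor cells. They had been purified by the O4 surface antigen and cultured for 10 days on polyacrylamide hydrogels of 50 kPa, with no drug treatment named for these libraries. The 3 flat libraries came from an unpatterned surface, and the 3 micropillar libraries from pillars 5 µm in diameter, 10 µm apart and 22 µm high. Each isolation pooled neonatal animals of both sexes, and the sources used here do not say whether the 3 libraries of a group came from separate isolations. The p-values therefore measure the spread between these libraries only, which may be technical.

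Poly(A)-selected RNA was sequenced. The flat libraries held 13135551, 13681024 and 10645621 counted reads, and the micropillar libraries 15432670, 14523168 and 15624525. Every flat library was shallower than every micropillar library, and flat replicate 3 was the shallowest. Mitochondrial reads numbered 644006, 741377 and 721951 against 588192, 570168 and 652810, where the groups overlapped. The part of depth in the results was not tested. In these bulk samples, fewer cells of a type and less RNA per cell cannot be told apart. All 7 markers of the OL lineage were present. Their summed level was 44549 to 76269 CPM in the flat libraries and 83853 to 90227 in the micropillar libraries. Mbp, 1 of these markers, alone reached 19815 to 31320 CPM in the flat libraries and 43834 to 48642 in the micropillar libraries. The sum thus depends strongly on 1 abundant myelin gene, and the levels of the other markers are not given here. CPM are reads per 1000000 of the library total after the TMM scaling described below. Markers of other cells were also present at 1 or more counts in every library. The 7 astrocyte markers summed to 1256 to 2038 CPM on flat hydrogels and 2202 to 2770 on micropillars, the 4 neuronal markers to 433 to 440 and 517 to 552, and the 6 neural stem markers to 1231 to 1783 and 1404 to 1518. Their part in the results was not tested. Micropillar replicates 1 and 2 were the most alike of any pair within a group, with a mean chi-square of 1.90 per gene against 7.14 to 41.4 for the other pairs, but differed by more than sampling noise and were kept as separate replicates.

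Mitochondrial genes took a smaller share of the counted reads on micropillars. On flat hydrogels, the 35 genes held 4.90%, 5.42% and 6.78% of the reads of replicates 1, 2 and 3. On micropillars, they held 3.81%, 3.93% and 4.18%. All 3 flat libraries lay above all 3 micropillar libraries, and flat replicate 3 stood highest. The share was 5.70% ± 0.971 (s.d., n = 3) on flat hydrogels and 3.97% ± 0.188 (n = 3) on micropillars, a difference of -1.73 percentage points and a ratio of 0.697. In an exact two-sided permutation test p was 0.10, the smallest value that 3 against 3 libraries can give. Counting error was far smaller than this difference, with 95% Wilson intervals of at most ±0.0151 points. Without flat replicate 3, the difference was -1.19 points.

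The share depends on what else is in a library. The 100 most abundant genes outside MT took 19.3% to 23.7% of the reads on flat hydrogels and 25.0% to 25.6% on micropillars. With those genes left out of the denominator, mitochondrial reads came to 7.78% ± 1.30 (n = 3) of the remaining nuclear-gene reads on flat hydrogels and 5.62% ± 0.253 (n = 3) on micropillars, a ratio of 0.723. With library totals scaled by the trimmed mean of M-values (TMM), a factor that centres the bulk of genes, the ratio was 0.761.

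Both classes of mitochondrial gene had the smaller share on micropillars. Protein-coding genes, which supplied nearly all mitochondrial reads, held 5.69% ± 0.967 of the reads on flat hydrogels and 3.96% ± 0.188 on micropillars (n = 3 each). The tRNA genes held 0.0136% ± 0.00338 and 0.00771% ± 0.000413 (n = 3 each), a ratio of 0.568. Within either class the groups did not overlap, with an exact permutation p of 0.10 for each class, also after Benjamini-Hochberg adjustment over the 2 classes.

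**Figure D1:**
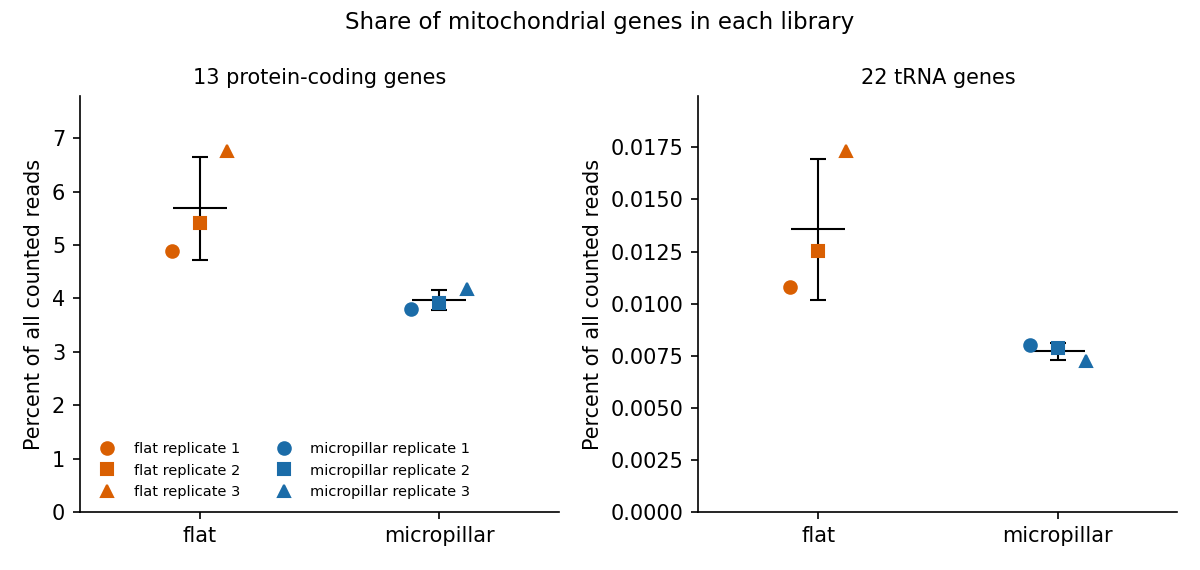
Percent of all counted reads assigned to the 13 protein-coding genes (left) and the 22 tRNA genes (right) of MT, with 1 point per library and the group mean ± s.d. in black; the 2 vertical axes differ in scale and start at 0. All micropillar points lie below all flat points in both panels, and flat replicate 3 is the highest point in each.

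Per-gene levels told the same direction with few single genes past the threshold. Levels in CPM were computed with TMM-scaled library sizes and compared with edgeR's quasi-likelihood test over the 13163 genes that passed the filter on low counts. The filter kept 22 of the 35 members, all 13 protein-coding genes and 9 tRNA genes. At a Benjamini-Hochberg adjusted p under 0.05, 7 of the 22 were lower on micropillars, 31.8% of them, against 11.4% of all genes tested. None was higher by edgeR, DESeq2 or limma-voom, tools that called 15.3%, 15.7% and 15.8% of all genes higher. At an unadjusted p under 0.05 none was higher either, but the share of all genes at that cut was not computed. No member combined the adjusted p with a change of more than 2-fold, the rule for a differentially expressed gene, in edgeR, DESeq2 or limma-voom, where 3.15%, 3.14% and 2.86% of all genes were lower by that rule. The tRNA gene at 6865 met it with library totals alone (-1.06) and without flat replicate 1 (-1.02), and the tRNA gene at 5010, with few counts, met it with library totals alone, with a replicate block and without flat replicate 2. The tRNA gene at 5010 alone passed that fold with an unadjusted p under 0.05 in edgeR. Its 4 to 24 counts a library lend no support to a direction.

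The number of calls moved with single libraries. When flat replicate 1 was left out, 11 members were lower, against 14.6% of all genes tested, and when flat replicate 2 was left out, 15 were, against 14.1%. Just 2 were lower when flat replicate 3 was left out, against 6.26% of all genes. Again 2 were lower when micropillar replicates 1, 2 or 3 were dropped, against 3.28%, 3.09% and 6.07%. DESeq2 called 13 members lower, against 12.7% of all genes. Scaling to library totals alone, which shifted the median of all genes by -0.13 on the log2 scale, gave 15, against 18.5%. Directions were steadier than calls. The 13 protein-coding genes had at least 6082 counts in each library, so the filter on low counts did not select among them. All 13 had a log2 fold change below 0, against 51.5% of all genes tested, and their median was -0.39 against -0.02. For 9 of the 13, all 3 micropillar values lay below all 3 flat values, against 21.7% of all genes tested. Flat replicate 3 held the highest flat value of every tested member. The members were measured in the same libraries and are not independent of each other, so these counts of genes are not separate results.

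**Figure D2:**
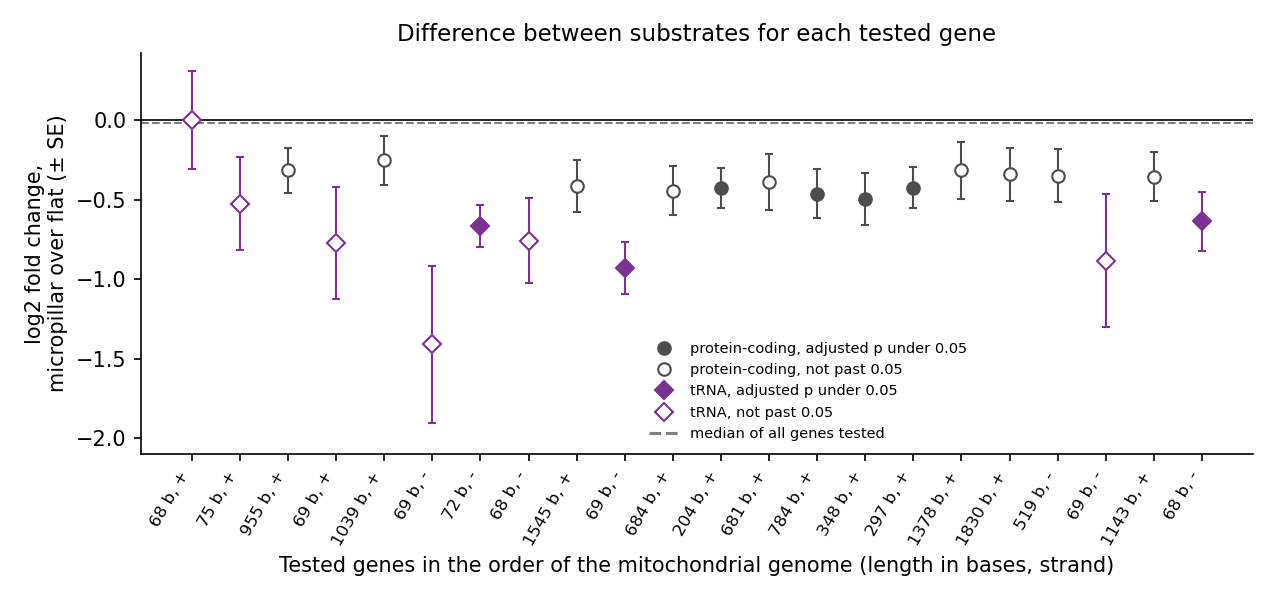
Log2 fold change (micropillar over flat, ± SE) of the 22 tested members in genome order, labelled by length in bases and strand; circles are protein-coding genes, diamonds tRNA genes, and filled symbols passed an adjusted p of 0.05 in edgeR. The protein-coding genes lie in a narrow band from -0.50 to -0.25, below the median of all genes at -0.02 (dashed line), while the tRNA genes spread from -1.41 to 0.00.

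The 13 protein-coding genes lay close together. Their log2 fold changes ran from -0.50 to -0.25, and their standard errors from 0.13 to 0.18. Each error belongs to 1 gene's difference between groups and does not measure a difference between genes. The order among them was not tested. Of the 13, 4 passed the edgeR test (30.8%, where 11.4% of all genes tested were lower). The other 9 did not, with edgeR adjusted p from 0.056 to 0.24. In the 4 genes whose groups overlapped, at 3904, 10160, 11736 and 13543, flat replicate 2 was the lowest flat library and fell within or below the micropillar range. The flat libraries were also the more variable, with a coefficient of variation of 10.1% to 26.7% against 3.41% to 9.60% on micropillars, and the larger s.d. of each of the 13 genes was on flat hydrogels.

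The 4 genes that passed were those at 7758 (204 bases), 9870 (297 bases) and 9451 (348 bases), the 3 shortest protein-coding genes, and the 784-base gene at 8599. The gene at 7758 measured 1240, 1325 and 1508 CPM on flat hydrogels and 957, 1021 and 1049 on micropillars. It fell by 0.43 on the log2 scale (SE 0.13, edgeR adjusted p = 0.031). All its flat values exceeded its micropillar values.

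The gene at 9870 measured 631, 590 and 771 CPM on flat hydrogels and 473, 507 and 504 on micropillars, and its log2 fold change was -0.42 (SE 0.13, edgeR adjusted p = 0.036). The groups did not overlap, and flat replicate 3 was the farthest from the rest. At 9451, levels were 575, 474 and 760 CPM on flat hydrogels against 436, 438 and 408 on micropillars. The log2 fold change was -0.50 (SE 0.16, edgeR adjusted p = 0.048), the lowest of the 13, and flat replicate 2 lay nearest to the micropillar libraries.

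The gene at 8599, among the 3 most counted members, measured 7062, 6973 and 8920 CPM on flat hydrogels and 5455, 5384 and 5817 on micropillars. It fell by 0.46 on the log2 scale (SE 0.15, edgeR adjusted p = 0.047), with flat replicates 1 and 2 close to each other and replicate 3 above both. None of these 4 genes passed without flat replicate 3 or without any 1 micropillar library. Over 15 alternative settings, the genes at 7758 and 9870 passed in 9, the gene at 8599 in 8 and the gene at 9451 in 7, all with the same direction. Some protein-coding genes overlap on MT, where reads may be shared or left uncounted. The gene at 7758 shares 43 bases, 21.1% of its length, with the gene at 7919, and the gene at 9870 shares 7 bases with the gene at 10160. The treatment of reads that touch 2 genes is not given in the sources used here.

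Among the 9 genes that did not pass, the most abundant was the 1545-base gene at 5323. It measured 12673, 13441 and 16782 CPM on flat hydrogels and 10466, 10588 and 11151 on micropillars. Its log2 fold change was -0.41 (SE 0.16, edgeR adjusted p = 0.084). Its groups did not overlap. The gene at 7919 measured 7734, 7128 and 10550 CPM against 6180, 6413 and 6830, and the gene at 7006 measured 5294, 5081 and 6758 CPM against 4020, 4204 and 4381. Flat replicate 3 was above the other flat libraries in both, and neither gene's groups overlapped. Their log2 fold changes were -0.39 (adjusted p = 0.13 in edgeR) and -0.44 (adjusted p = 0.056 in edgeR).

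The gene at 14136 measured 5132, 5502 and 6637 CPM on flat hydrogels and 4183, 4315 and 4987 on micropillars, and the gene at 2740 measured 2184, 2517 and 2842 against 1932, 1962 and 2167. For both, the highest micropillar library, replicate 3, came close to the lowest flat library, replicate 1, without reaching it. Their log2 fold changes were -0.36 and -0.32, with edgeR adjusted p of 0.11 and 0.12.

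The remaining genes had overlapping groups. At 3904, levels were 3353, 2922 and 4061 CPM on flat hydrogels and 2768, 3015 and 2885 on micropillars, and the log2 fold change of -0.25 (edgeR adjusted p = 0.24) was the nearest to 0 of the 13. Levels at 11736 were 2313, 1881 and 2966 CPM against 1807, 1936 and 1908. Levels at 10160 were 742, 558 and 959 CPM against 569, 618 and 627. In each of these, flat replicate 2 was below at least 1 micropillar library while flat replicate 3 was above all 3.

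The gene on the minus strand, at 13543, had 736, 614 and 991 CPM on flat hydrogels and 582, 613 and 641 on micropillars. Its log2 fold change of -0.35 (SE 0.17, edgeR adjusted p = 0.15) lay within the range of the plus-strand genes. The ratio of its counts to those of all 12 plus-strand protein-coding genes was 0.0150, 0.0127 and 0.0156 on flat hydrogels and 0.0148, 0.0152 and 0.0150 on micropillars. The groups overlapped, with a difference of 0.06 in the mean log2 ratio and an exact permutation p of 0.90 (0.90 after adjustment over the 2 ratios tested). Strand use in counting is not given in the sources used here, and 23 of this gene's bases overlap the gene at 11736. Without strand, reads of a gene and of the opposite strand cannot be told apart.

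Levels between genes were compared per length, as CPM per kb of gene. The order of the 13 protein-coding genes by mean level per length was the same in both groups. It ran, from high to low, through the genes at 7919, 8599, 5323, 7006, 7758, 14136, 3904, 2740, 9870, 9451, 13543, 11736 and 10160. Each of the 3 flat libraries and micropillar replicates 1 and 2 had this order too. In micropillar replicate 3, 11 of the 13 genes held their place and the neighbouring genes at 9451 and 13543 were exchanged.

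At the top, the gene at 7919 reached 12438 ± 2681 CPM per kb on flat hydrogels and 9507 ± 483 on micropillars (s.d., n = 3 each). At the bottom, the gene at 10160 reached 546 ± 146 and 439 ± 22.5 (n = 3 each). The span from highest to lowest was thus 22.8-fold on flat hydrogels and 21.7-fold on micropillars. Neighbours on MT could differ widely per length, as the gene at 9870, which directly precedes the lowest gene, reached 2236 ± 320 and 1666 ± 62.9 CPM per kb (n = 3 each). The genes at 9870 and 10160 are 297 and 1378 bases long, share 7 bases and have no tRNA gene between them. Whether their values per length reflect a difference in transcript level was not tested. Before division by length, their means were 664 and 753 CPM on flat hydrogels and 495 and 605 on micropillars. How far short length alone raises a value per kb was not tested. Not all neighbours in the order could be separated. Of the 12 neighbouring pairs, 4 did not overlap between libraries on flat hydrogels, and 10 did not on micropillars. The genes at 8599 and 5323 overlapped in both groups, as did those at 9451 and 13543. These levels also depend on how evenly poly(A)-selected fragments cover each gene, which was not tested.

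**Figure D3:**
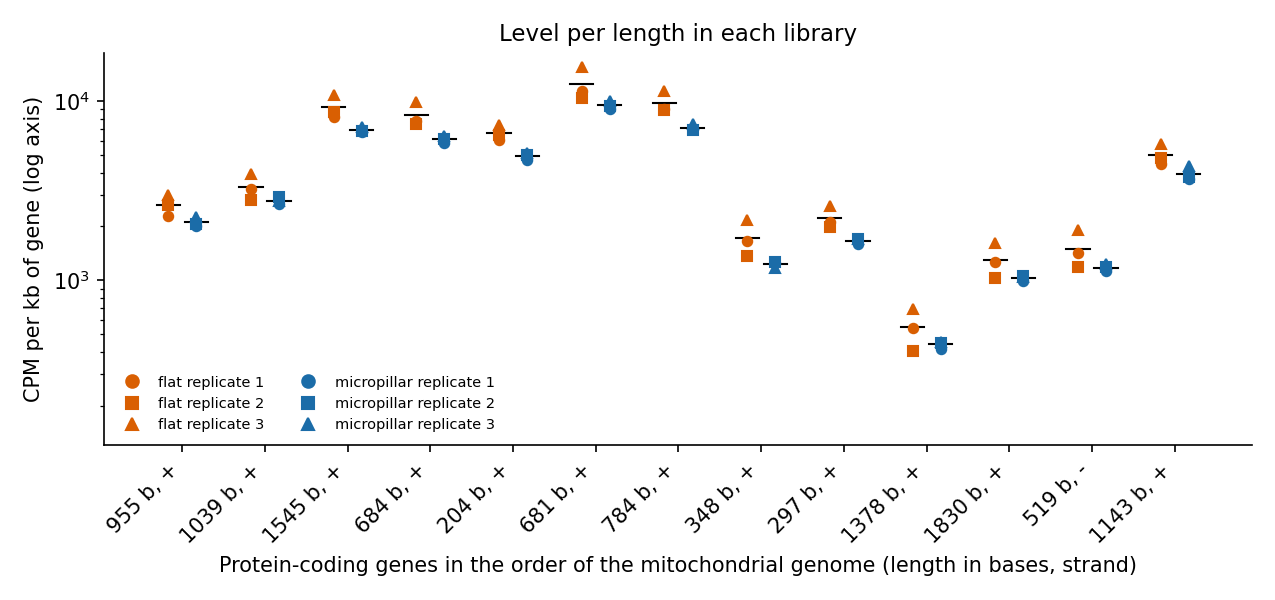
Level per length (CPM per kb, log axis) of the 13 protein-coding genes in genome order, labelled by length in bases and strand, with 1 point per library and black lines at the group means. Between the highest and the lowest gene the means differ 22.8-fold on flat hydrogels and 21.7-fold on micropillars, and flat replicate 3 (triangle) is the highest point of each gene.

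The makeup of the mitochondrial reads was compared separately, because a gene's share of the mitochondrial counts does not depend on the library total. The genes at 5323, 7919 and 8599 together held 55.4% of all mitochondrial counts. For the 20 members with at least 10 counts in every library, 12 had a smaller mean share on micropillars and 8 a larger one. Shares of the protein-coding genes were close between groups, with ratios of micropillar to flat from 0.941 to 1.10. The gene at 5323 held 26.3% ± 0.989 of the mitochondrial counts on flat hydrogels and 25.9% ± 0.293 on micropillars (n = 3 each), and its groups overlapped.

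Flat and micropillar shares were fully separated in 4 of the 20 members, all of which had the smaller share on micropillars. The gene at 8599 held 14.2%, 14.2% and 13.8% of the mitochondrial counts on flat hydrogels and 13.7%, 13.1% and 13.4% on micropillars. For the gene at 7006 the shares were 10.6%, 10.3% and 10.5% against 10.1%, 10.2% and 10.1%. Both differences were small beside the shares themselves, at ratios of 0.952 and 0.967. The other 2 members were the tRNA genes at 5081 and 6865, with ratios of 0.826 and 0.689. For all 4 the exact permutation p was 0.10, the smallest possible, and 0.50 after adjustment over the 20 members, so none passed. Shares of a whole are not independent of each other, and no such count was made over all genes. The plus-strand protein-coding genes were also divided by position, into the first 6 and the last 6. The last 6 had 0.507, 0.493 and 0.494 times the counts of the first 6 on flat hydrogels and 0.491, 0.485 and 0.501 on micropillars. The groups overlapped (exact permutation p = 0.40, 0.80 after adjustment).

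**Figure D4:**
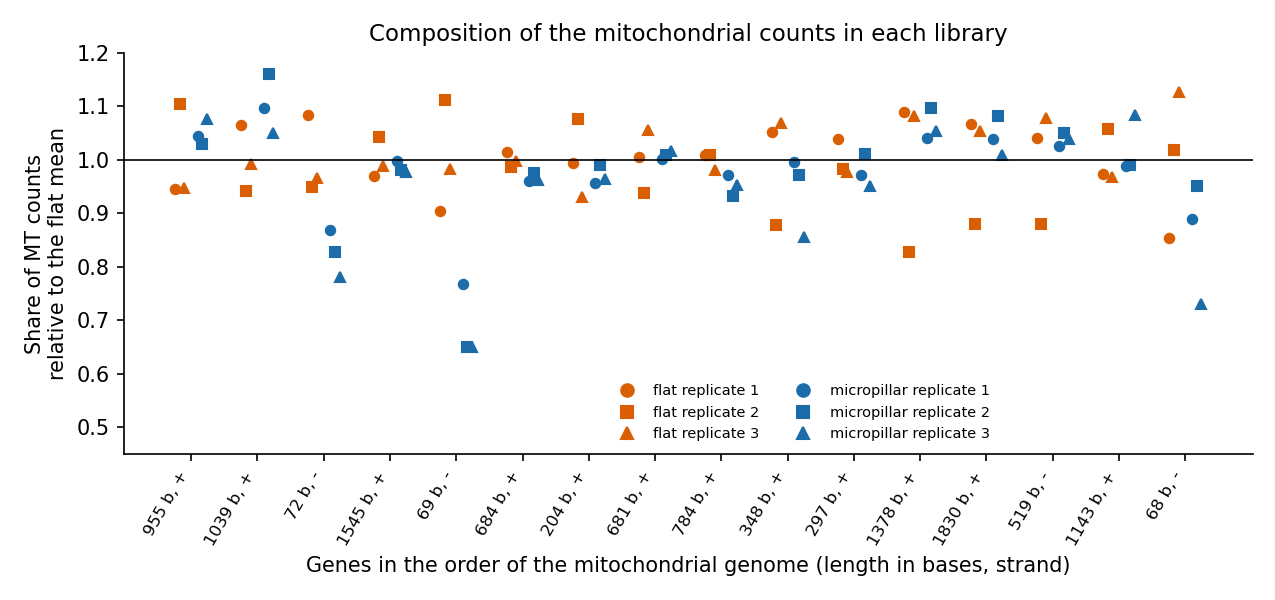
Share of the mitochondrial counts of each protein-coding gene and of the 3 tRNA genes that passed the edgeR test, divided by the mean flat share of that gene (line at 1), in genome order and labelled by length in bases and strand, with 1 point per library. Ratios of the group means of the protein-coding genes lie between 0.941 and 1.10, and the micropillar points lie below all flat points for the 684-base and 784-base protein-coding genes and for the 72-base and 69-base tRNA genes on the minus strand.

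Mitochondrial tRNAs carry amino acids to the ribosomes of the organelle and, once mature, have no poly(A) tail. In these poly(A)-selected libraries the 22 tRNA genes held 8496 counts over all 6 libraries, 0.217% of the mitochondrial counts. Of the 9 that were tested, 3 were lower on micropillars and 6 did not pass, where 11.4% of all genes tested were lower. The 3 that fell all lie on the minus strand, and together they held 76.7% of all tRNA counts. Of the 9 tested, 6 lie on that strand, which held 86.9% of all tRNA counts, so no strand difference can be read from these calls.

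The tRNA gene at 6865 (ENSRNOG00000032882, bases 6865–6933) had 217, 307 and 264 counts in the flat libraries and 168, 138 and 158 in the micropillar libraries. These counts are 16.8, 20.3 and 23.6 CPM against 11.4, 9.95 and 10.5, with no overlap. It fell by 0.93 on the log2 scale (SE 0.16, edgeR adjusted p = 0.0044). The tRNA gene at 5081 (ENSRNOG00000032609, bases 5081–5152) had 427, 431 and 427 counts against 313, 289 and 312. In CPM it measured 33.0, 28.6 and 38.2 on flat hydrogels and 21.2, 20.8 and 20.8 on micropillars, where the 3 libraries nearly coincided. It fell by 0.67 (SE 0.13, edgeR adjusted p = 0.0067). These were the 2 members that passed in all 15 alternative settings, including those without each library in turn.

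The tRNA gene at 15348 had 461, 632 and 681 counts on flat hydrogels and 438, 454 and 399 on micropillars. At 35.6, 41.9 and 61.0 CPM against 29.7, 32.7 and 26.5 the groups did not overlap, though flat replicate 1 lay close to micropillar replicate 2. Its log2 fold change was -0.64 (SE 0.19, edgeR adjusted p = 0.031), and it passed in 10 of the 15 settings but not without flat replicate 3 or without any 1 micropillar library. Whether these reads come from the tRNAs or from precursors or transcripts of the opposite strand was not tested. The tRNA gene at 6865 shares 3 bases with the end of the gene at 5323, which lies on the other strand.

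The other 4 tested tRNA genes with at least 10 counts in every library did not pass. The minus-strand gene at 5185 had 6.88, 8.88 and 14.3 CPM on flat hydrogels and 6.11, 6.41 and 5.19 on micropillars, a log2 fold change of -0.76 (SE 0.27, edgeR adjusted p = 0.061). On the plus strand, the gene at 3835 had 2.63, 2.65 and 4.39 CPM against 2.24, 1.23 and 2.13. The groups did not overlap for either gene. At 2665, the levels of 6.11, 5.50 and 10.6 CPM against 5.90, 5.62 and 3.79 overlapped. At 1026, levels of 4.17, 2.05 and 5.02 CPM against 5.02, 3.32 and 2.79 gave a log2 fold change of 0.00 (SE 0.31). That gene was the 1 tested member without a negative log2 fold change. The tRNA genes at 5010 and 14062 also had negative log2 fold changes, -1.41 (SE 0.49) and -0.88 (SE 0.42), but with 4 to 28 counts a library, and neither passed. Neither had 10 counts in every micropillar library, so passing the filter rested in part on the flat libraries, and their values lend no support to a direction.

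**Figure D5:**
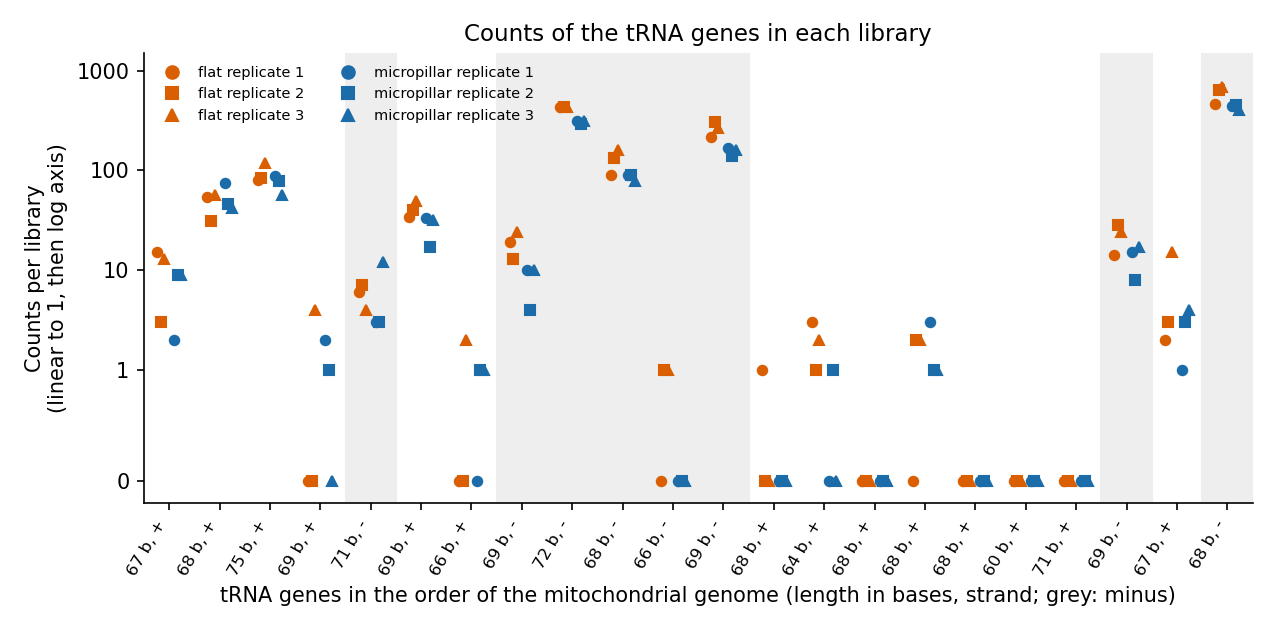
Counts of the 22 tRNA genes in each library in genome order, labelled by length in bases and strand, on an axis that is linear up to 1 and logarithmic above; grey bands mark the minus strand. Most counts lie on a few minus-strand genes, and 4 plus-strand genes have 0 counts in all 6 libraries.

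The remaining 13 tRNA genes had at most 15 counts in any library and were not tested. Of these, 9 had at least 1 count and 4 had 0 counts in all 6 libraries. A count of 0 allows up to 3 counts, or 0.269 CPM in the shallowest library, and such limits cover counting error only. The tables give no names for nuclear genes, and of the 110 nuclear genes of oxidative phosphorylation and mitochondrial gene expression that were listed for comparison, 0 could be given an identifier, so no count of them is reported.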

How the data were processed

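Poly(A)-selected RNA of OLs was sequenced in paired-end reads, 3 libraries per surface. Per the labels and the study's methods, the authors trimmed adapters, aligned reads to Rnor6.0 (STAR 2.5.2b) and counted uniquely mapping reads in exons (featureCounts, Subread 1.5.2). The deposited counts are raw. Also deposited was a regularised log2 table of 13061 genes holding 22 of the members, with 1 column per library, used here only for that number. As only unique reads were counted, nuclear copies of mitochondrial DNA could lower counts, which was not checked.

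Position alone decided which genes are members, but the set and the lists were chosen with earlier results of these data known. All rows on MT were members, with values in every library given for protein-coding genes and for tRNA genes with at least 10 counts in every library. Names were to come from a reference table whose identifiers or intervals match. The table used, RefSeq on GRCr8, had 0 rows on MT and 0 Ensembl identifiers. Members are therefore given by class, position and length, and tests planned by respiratory complex were not run. No row on MT was classed as ribosomal RNA, so tests planned on it were not run either.

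All genes were fitted with edgeR 4.0.16 (filterByExpr, TMM, quasi-likelihood, group as the 1 term, R 4.3.3) and adjusted by Benjamini-Hochberg. A differentially expressed gene also needed an absolute log2 fold change over 1. CPM used TMM-scaled totals. Shares, composition and ratios were compared by exact two-sided permutation tests. Scripts were tested on simulated data. Alternatives were DESeq2 1.42.0, limma-voom 3.58.1, other scalings and filters, a replicate block and leaving out each library. Marker genes were identified by matching the study's normalised values of its marker panel to the counts, which found 24.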

Additional observations from a re-analysis of the deposited data

How the results depend on the processing

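The share of mitochondrial reads was lower on micropillars in every setting run, with a difference of -2.13 to -1.19 points when each library was left out in turn. The exact permutation p was 0.1 without any 1 flat library and 0.2 without any 1 micropillar library. It was also 0.2 with micropillar replicates 1 and 2 averaged. The smallest p that 3 against 2 values allow is 0.1. The median log2 fold change of the protein-coding genes was -0.49 to -0.24 when each library was left out in turn. The number of tested members that were lower, 7 in edgeR with 4 of them protein-coding, moved more. It was 13 with 9 protein-coding in DESeq2 and 15 with 10 after scaling to library totals. Leaving out each library in turn gave 2 to 15 with 0 to 11 protein-coding, and summing micropillar replicates 1 and 2 gave 2 with 0, against 3.45% of all genes. In that last fit 3 protein-coding genes had an unadjusted edgeR p under 0.05, but the share of all genes at that cut was not computed. The other scalings, filters and limma-voom gave 6 to 8, against 7.79% to 12.4% of all genes. By the rule for a differentially expressed gene, the tRNA gene at 5010 was lower with library totals (-1.53), the replicate block (-1.44) and without flat replicate 2 (-1.70). It is among the lower calls counted in those settings. With 4 to 24 counts a library, it passed the filter in part through the flat libraries, and its values lend no support to a direction. The cause was not tested. All 13 protein-coding genes kept a log2 fold change below 0 in all 15 settings.

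Deviations from the group mean had correlations of 0.07, -0.08 and 0.00 between libraries with the same replicate number. Between libraries with different numbers they ran from -0.11 to 0.11. With 3 libraries a group, these values cannot tell whether libraries with the same number share an isolation or batch. With the replicate block, edgeR gave 4 lower calls, against 9.95% of all genes, 0 of them protein-coding. In that fit 5 protein-coding genes had an unadjusted edgeR p under 0.05, but the share of all genes at that cut was not computed. The share of mitochondrial reads differed by -1.73 points as before (exact permutation p = 0.25, the smallest that 3 pairs allow).

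The log2 fold change of the tRNA gene at 1026 changed sign, to -0.012 in DESeq2, -0.0080 with DESeq2 size factors, -0.12 with library totals, -0.00079 with TMM computed without MT genes and -0.064 with micropillar replicates 1 and 2 summed, and ran from -0.30 to 0.26 when each library was left out. In the same fits, differences in the share of mitochondrial counts crossed 0 for the genes at 5323 (-0.770 to 0.183 points), 7758 (-0.162 to 0.0210), 7919 (-0.319 to 0.582), 10160 (-0.0296 to 0.149), 11736 (-0.0729 to 0.336), 13543 (-0.0296 to 0.111) and 14136 (-0.102 to 0.534) and the tRNA gene at 2665 (-0.00206 to 0.000967). The difference between groups (micropillar minus flat) in the log2 ratio of the minus-strand gene to the plus-strand genes ran from -0.03 to 0.12. Low counts limit only the tRNA genes, since every protein-coding gene had at least 6082 counts in each library.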

Other observations

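Counts of the tRNA genes were unevenly divided between the strands. The 8 minus-strand tRNA genes held 7379 of the 8496 tRNA counts (86.9%), and the 14 plus-strand genes held 1117 (13.1%). In the flat libraries the minus-strand genes had 1233, 1553 and 1585 counts and in the micropillar libraries 1037, 985 and 986. The protein-coding counts were divided the other way, with 98.6% on the 12 plus-strand genes and 1.45% on the minus-strand gene. On the plus strand, the tRNA genes at 1026, 2665 and 3835 held 90.4% of the tRNA counts.

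The plus-strand tRNA genes at 9383, 11538, 11606 and 11665 had 0 counts in all 6 libraries. No cause was tested for either pattern.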
